A study of Mus musculus with 2 samples.

Results

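The genes of glycolysis, glycogen turnover and lactate handling were described in gastrocnemius, a large muscle of the calf, from female B6CASTF1/J mice, a hybrid of the C57BL and castaneus strains, aged 2 months. The members were 44 genes taken by name from both deposited transcript tables, of 15371 annotated genes with a read in either library. There was 1 group with 2 libraries and no treatment, each made from 2 µg of RNA. Replicate 1 is labelled animal 3 and replicate 2 animal 4, although a single donor identifier is attached to both, so that only the animal numbers show them to be separate mice. Each tissue sample was bulk RNA read by long-read sequencing, in which 1 read stands for 1 cDNA molecule and shows its splicing from end to end where the molecule is complete. With 1 group, no condition was compared. The tests below set these 2 libraries against each other, not animals as a population, and no difference between them has a replicate check.

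Glycolysis splits glucose to pyruvate and yields ATP without oxygen, and fast muscle fibres lean on it during short, hard work. Glycogen is the glucose store of the fibre. Glycogen synthase and branching enzyme build it, and glycogen phosphorylase, switched on by phosphorylase kinase, releases it. Lactate dehydrogenase turns pyruvate to lactate and back, and monocarboxylate carriers move lactate over the cell membrane. Many of these steps are encoded by several paralogues, 1 of which is typical of muscle, and some genes also choose between alternative exons.

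The exons that carry the splicing results come first. Pkm encodes pyruvate kinase, the last enzyme of glycolysis, and its M1 and M2 proteins differ by 1 of 2 exons of 167 bases. The M1 exon lies at chr9:59675029-59675195 and the M2 exon at chr9:59675568-59675734, both on the plus strand of mm10. All exon sequences here are from the GENCODE M21 transcripts. Capitals mark the 64 positions at which these 2 exons differ.
Pkm M1 exon: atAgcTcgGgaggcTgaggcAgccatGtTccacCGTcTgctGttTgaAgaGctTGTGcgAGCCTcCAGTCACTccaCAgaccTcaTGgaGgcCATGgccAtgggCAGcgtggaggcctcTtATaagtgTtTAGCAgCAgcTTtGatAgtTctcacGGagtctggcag
Pkm M2 exon: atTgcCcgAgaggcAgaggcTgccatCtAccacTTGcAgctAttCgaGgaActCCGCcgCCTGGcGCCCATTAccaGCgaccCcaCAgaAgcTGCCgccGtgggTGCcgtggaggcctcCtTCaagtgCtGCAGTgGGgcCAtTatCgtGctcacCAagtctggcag

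Eno1 encodes the widely expressed enolase. It has a pair of coding exons of 59 bases, at chr4:150241767-150241825 and chr4:150242122-150242180 on the plus strand, of which the reads held 1 or the other. Capitals mark the 29 positions that differ.
Eno1 upstream exon: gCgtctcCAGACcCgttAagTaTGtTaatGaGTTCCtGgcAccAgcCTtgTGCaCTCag
Eno1 downstream exon: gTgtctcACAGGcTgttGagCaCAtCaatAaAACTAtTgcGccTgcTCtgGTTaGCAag

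Phka1 encodes the muscle form of the regulatory alpha subunit of phosphorylase kinase, on the minus strand of chromosome X. A coding exon of 177 bases at chrX:102557096-102557272 separates its transcripts Phka1-202, which holds it, and Phka1-201, which does not. Near the 3′ end it has a pair of exons of 39 bases, upstream at chrX:102532077-102532115 and downstream at chrX:102531922-102531960. Capitals mark the 5 positions at which that pair differs.
Phka1 177-base exon: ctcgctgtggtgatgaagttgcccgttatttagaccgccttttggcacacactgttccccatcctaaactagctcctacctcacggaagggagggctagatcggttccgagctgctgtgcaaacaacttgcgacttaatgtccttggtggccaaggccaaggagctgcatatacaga
Phka1 upstream 39-base exon: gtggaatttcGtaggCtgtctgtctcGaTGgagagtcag
Phka1 downstream 39-base exon: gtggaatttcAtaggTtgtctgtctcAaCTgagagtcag

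Sequencing depth was close, at 1349298 reads in replicate 1 and 1359923 in replicate 2. Muscle markers were abundant in both, with summed levels of 118655 and 118844 reads per 1000000 library reads (CPM) over the 5 skeletal muscle genes checked, although each of the 5 was called, 3 higher and 2 lower in replicate 2. The 7 fast fibre markers, which share Myh4, Tnnt3 and Mylpf with the skeletal muscle genes, summed to 51901 and 54068 CPM. All 7 were called, 4 higher and 3 lower, with ratios of replicate 2 over replicate 1 from 0.626 for Tnni2 to 1.27 for Myh4. Spike-in reads were 3.64% and 1.49% of the libraries. All 9 slow fibre markers were higher in replicate 2, with a summed level of 1355 CPM in replicate 1 and 9212 in replicate 2. All 7 adipocyte markers were lower in replicate 2 (1143 and 107 CPM), as were the 5 tested of 6 nerve and Schwann cell markers (631 and 89.0 CPM) and 3 of 4 smooth muscle markers (156 and 69.9 CPM). Retn, an adipocyte marker, was at 0 reads in replicate 2. None of the 5 endothelial (97.8 and 79.4 CPM) or 4 red blood cell markers (107 and 124 CPM) was called, although 2 endothelial markers, Pecam1 with 35 and 17 reads and Cldn5 with 36 and 17, had fold intervals that excluded 1. Marker levels and member levels were read from the same 2 libraries, and the part of the marker differences in the ratios below was not tested. In bulk tissue, fewer cells of a type and less RNA per cell cannot be told apart.

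The members together took 50354 reads in replicate 1 and 47188 in replicate 2, or 3.73% and 3.47% of the libraries. Levels spread over more than 3 orders of magnitude, from the enolase Eno3 to phosphorylase kinase subunit Phka2. In both libraries 9 members exceeded 1000 reads. By step of the pathway, they were Gpi1, Pfkm, Tpi1, Pgam2, Eno3, Pkm, Ldha, Pgm1 and Pygm. They held 82.7% and 82.6% of all member reads. At the other end, 9 members had under 20 reads in each library. Values are reads divided by the library total and not by gene length, since 1 read stands for 1 molecule.

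**Figure D1:**
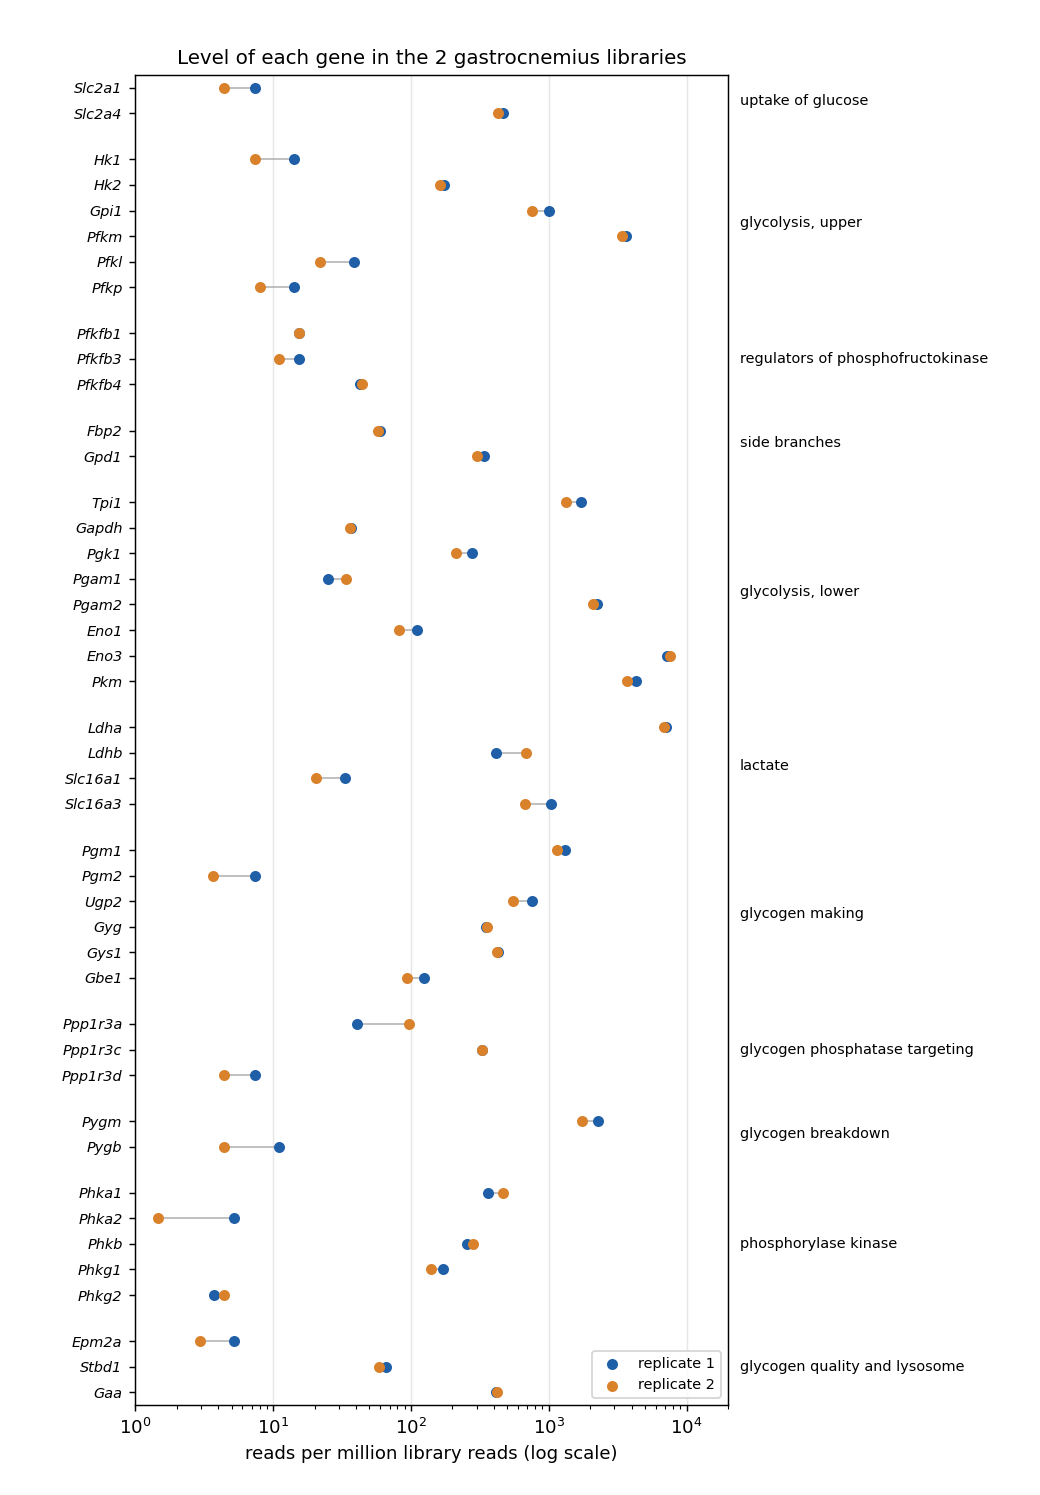
CPM in each library for the 44 genes, grouped by role, on a log axis; points are the 2 libraries and the grey line joins them. The highest gene is Eno3 at 7222 and 7607 CPM and the lowest is Phka2 at 5.19 and 1.47 CPM.

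Uptake of glucose was represented by Slc2a4, the insulin-regulated carrier GLUT4, with 627 reads in replicate 1 and 584 in replicate 2. Its level was 447 ± 24.9 CPM (SD, n = 2). Slc2a1, the widespread carrier GLUT1, had 10 and 6 reads, so Slc2a4 took 98.4% (97.1 to 99.2) and 99% (97.8 to 99.5) of the reads of this pair. Ranges in brackets are 95% Wilson intervals and cover counting error only. Among hexokinases, which trap glucose in the cell as glucose 6-phosphate, the insulin-regulated Hk2 had 235 and 221 reads (168 ± 8.24 CPM) against 19 and 10 for Hk1. Hk2 held 92.5% (88.6 to 95.2) and 95.7% (92.2 to 97.6) of the pair. The muscle form thus led each of these entry steps in both libraries, and Hk2 lay below Slc2a4 in level.

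Gpi1, glucose phosphate isomerase, had 1367 reads in replicate 1 and 1028 in replicate 2 (884.5 ± 182 CPM). Phosphofructokinase commits sugar to glycolysis, and its muscle gene Pfkm had 4871 and 4627 reads (3506 ± 147 CPM). The liver-type Pfkl had 52 and 30 reads and the platelet-type Pfkp 19 and 11. Pfkm held 98.6% (98.2 to 98.9) and 99.1% (98.8 to 99.4) of the reads of the 3 genes. The PFKFB enzymes set the level of fructose 2,6-bisphosphate, the activator of phosphofructokinase, and were scarce. Pfkfb4 had 58 and 60 reads (43.6 ± 0.802 CPM), Pfkfb1 21 and 21, and Pfkfb3 21 and 15. No PFKFB gene reached 90% of its step: Pfkfb4 led with 58.0% (48.2 to 67.2) and 62.5% (52.5 to 71.5). When annotated transcripts alone were counted, its mean share was 5.49% and it no longer led, because nearly all its reads lay on models that match no annotated transcript in full. On the side branches, Fbp2, the muscle fructose bisphosphatase, had 81 and 78 reads (58.7 ± 1.89 CPM), and Gpd1, the cytosolic glycerol 3-phosphate dehydrogenase, had 457 and 408 (319 ± 27.4 CPM).

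The lower part of the pathway held the most abundant members. Tpi1, triose phosphate isomerase, had 2332 reads in replicate 1 and 1827 in replicate 2 (1536 ± 272 CPM). Pgam2, the muscle phosphoglycerate mutase, had 3036 and 2842 reads (2170 ± 113 CPM) against 34 and 46 for the widespread Pgam1, and held 98.9% (98.5 to 99.2) and 98.4% (97.9 to 98.8) of the pair. Eno3, the muscle enolase, had 9745 and 10345 reads (7415 ± 272 CPM), which put it 11th and 9th among all genes. Eno1 had 149 and 111 reads, so Eno3 held 98.5% (98.2 to 98.7) and 98.9% (98.7 to 99.1). These 2 intervals touched to the digits shown and did not overlap when unrounded. Pkm had 5849 and 5040 reads (4020 ± 445 CPM). For mutase and enolase the muscle gene exceeded its paralogue by more than an order of magnitude in both libraries.

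Gapdh and Pgk1 stood out from their neighbours in the pathway, and both have near-identical copies elsewhere in the genome. Gapdh, glyceraldehyde 3-phosphate dehydrogenase, had 50 reads in replicate 1 and 49 in replicate 2, or 36.5 ± 0.725 CPM (SD, n = 2), a level under 1 in 20 of that of each of Tpi1, Pgam2, Eno3 and Pkm. Of 70 annotated pseudogenes with at least 95% identity to Gapdh over at least 70% of their length, 20 had reads, 5376 and 3342 in all. The copies held 99.1% (98.8 to 99.3) and 98.6% (98.1 to 98.9) of the sum of gene and copies, and 99.7% of their reads were on single-exon models. The most reads lay at Gm12671 (1862 and 552), Gm12033 (1240 and 888), Gm5559 (1008 and 807) and Gm7336 (856 and 774), each 99.8% to 100% identical to Gapdh in the aligned part. Gapdh-ps15, a copy on chromosome Y, held 17 and 15 reads in these female mice. With the copies added, Gapdh stood at 4021 and 2494 CPM, between Tpi1 and Eno3. Which reads came from the gene and which from a copy cannot be told apart here, so the level of Gapdh and any ratio of it are uncertain.

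Pgk1, phosphoglycerate kinase, had 373 and 288 reads (244 ± 45.7 CPM). Its copies, of which 2 of 4 had reads, held 284 and 117, all on single-exon models, or 43.2% (39.5 to 47.0) and 28.9% (24.7 to 33.5) of the sum. The copy share differed between the libraries, since the intervals did not overlap. With copies added Pgk1 stood at 487 and 298 CPM. For Eno1, a retrogene and 1 pseudogene held 37 and 15 reads, or 19.9% (14.8 to 26.2) and 11.9% (7.35 to 18.7). The pseudogene copies of Gpi1, Ldha, Pgam1, Pkm and Tpi1 had 0 reads in both libraries and that of Ldhb had 1 and 0.

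Lactate handling was led by Ldha and Slc16a3. Ldha, the A subunit of lactate dehydrogenase, had 9581 reads in replicate 1 and 9349 in replicate 2 (6988 ± 160 CPM). Ldhb, the B subunit typical of heart and slow muscle, had 562 and 933 (551 ± 191 CPM). It made up 5.54% (5.11 to 6.0) of the pair in the first library and 9.07% (8.53 to 9.65) in the second, so the intervals did not overlap. Slc16a3, the carrier MCT4 associated with lactate export from fast fibres, had 1393 and 913 reads (852 ± 255 CPM), while Slc16a1, the carrier MCT1, had 45 and 28. Slc16a3 held 96.9% (95.8 to 97.7) and 97.0% (95.7 to 97.9) of the carrier reads. The balance of the dehydrogenases thus differed between the libraries, whereas the intervals of the carrier balance overlapped.

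Among genes of glycogen making, Pgm1, phosphoglucomutase, had 1785 and 1551 reads (1232 ± 129 CPM) against 10 and 5 for Pgm2, which is 99.4% (99 to 99.7) and 99.7% (99.3 to 99.9) of that pair. Ugp2, which makes UDP-glucose, had 1021 and 753 (655 ± 144 CPM). Gyg, glycogenin, the primer of the glycogen particle, had 475 and 483 (354 ± 2.21 CPM). Gys1, muscle glycogen synthase, had 574 in each library (424 ± 2.35 CPM), and Gbe1, the branching enzyme, 168 and 127 (109 ± 22 CPM). The synthase and its primer were thus level between the libraries, while Ugp2 and Pgm1 were not. Of the subunits that bring protein phosphatase 1 to glycogen, Ppp1r3c had 440 and 443 reads (326 ± 0.242 CPM), Ppp1r3a, the large muscle subunit, 55 and 131 (68.6 ± 39.3 CPM), and Ppp1r3d 10 and 6. Ppp1r3c led with 87.1% (83.9 to 89.8) in replicate 1 and 76.4% (72.8 to 79.7) in replicate 2, below 90% in both. Divided by mean model length, its mean share was 89.8%.

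Glycogen breakdown rested on Pygm, the muscle phosphorylase, with 3076 and 2373 reads (2012 ± 378 CPM). The brain form Pygb had 15 and 6, so Pygm held 99.5% (99.2 to 99.7) and 99.7% (99.5 to 99.9) of the pair. For phosphorylase kinase, the regulatory alpha subunit Phka1 had 489 and 631 reads (413 ± 71.8 CPM) and the liver form Phka2 7 and 2. Phkb, the regulatory beta subunit, had 345 and 382 (268 ± 17.8 CPM). Phkg1, the catalytic gamma subunit of muscle, had 232 and 190 (156 ± 22.8 CPM) and its paralogue Phkg2 5 and 6. The muscle alpha form held 98.6% (97.1 to 99.3) and 99.7% (98.9 to 99.9), and the muscle gamma form 97.9% (95.2 to 99.1) and 96.9% (93.5 to 98.6). Of genes of glycogen quality, the lysosomal glucosidase Gaa had 564 and 571 reads (419 ± 1.33 CPM), the glycogen-binding Stbd1 89 and 80 (62.4 ± 5.04 CPM), and Epm2a, the glycogen phosphatase laforin, 7 and 4.

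In all, 11 of 13 steps with paralogues had a leading gene with at least 90% of the reads in both libraries. The other 2 were the PFKFB enzymes and the glycogen targeting subunits. The lead was the same gene in each library at every step. The intervals of the leading share overlapped between the libraries except for enolase, lactate dehydrogenase and the glycogen targeting subunits. With annotated transcripts alone 9 steps met the 90% level, and with reads divided by mean model length 10 did.

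**Figure D2:**
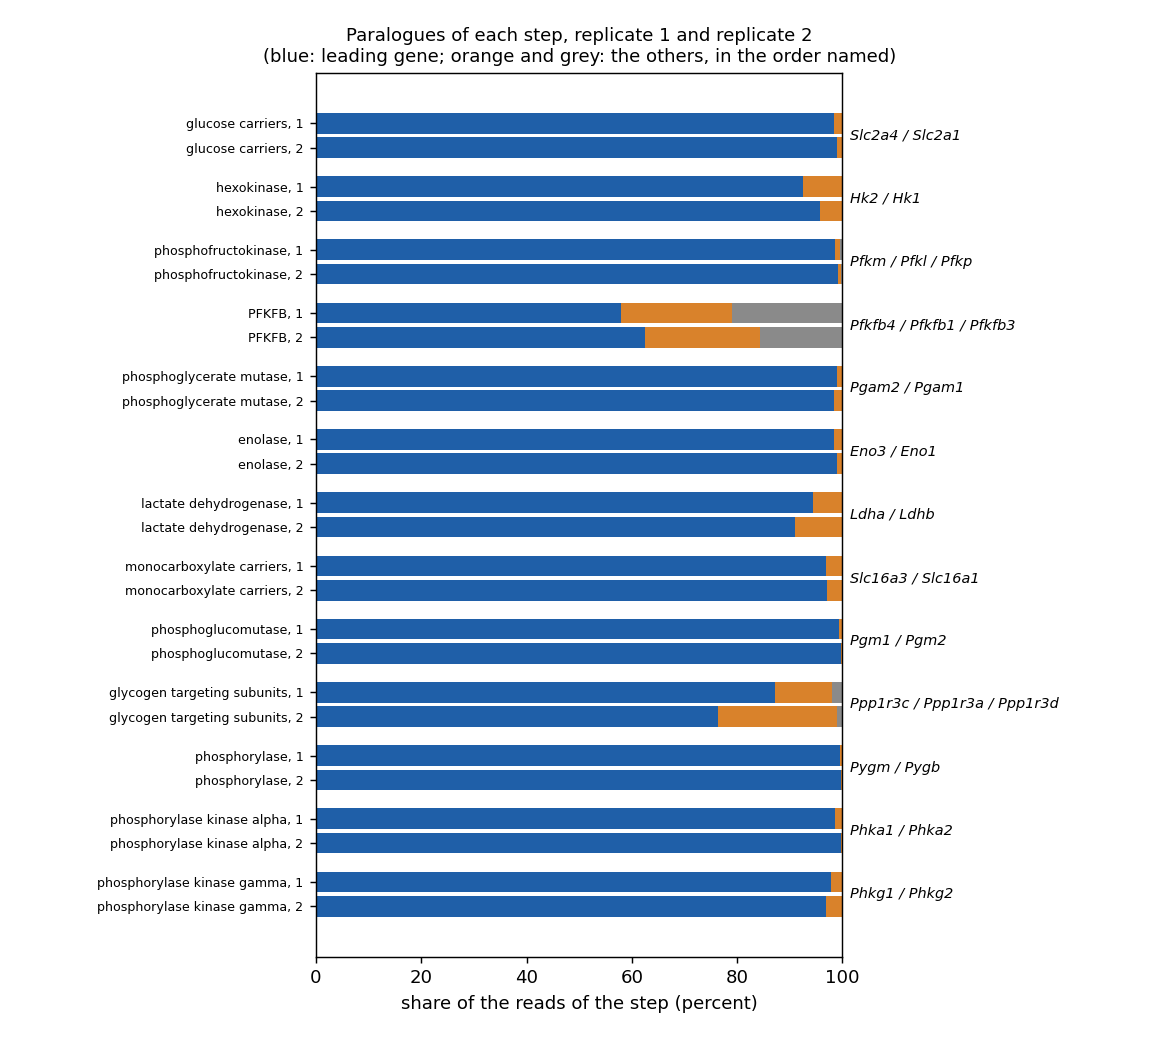
Share of reads held by each paralogue, in percent of the step's reads, for 13 steps; the upper bar of each pair is replicate 1 and the lower is replicate 2. The steps whose leading gene stays under 90% are the PFKFB enzymes (58.0% and 62.5%) and the glycogen targeting subunits (87.1% and 76.4%).

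Pkm reads were almost all of the M1 form. The M1 exon was held by 5686 of 5758 informative reads in replicate 1, or 98.7% (98.4 to 99), and by 4901 of 4948 in replicate 2, or 99.1% (98.7 to 99.3). An informative read holds the exon as an internal exon or splices across it. The M2 exon, printed above beside M1, was held by 71 of 5798 reads, or 1.22% (0.972 to 1.54), and by 45 of 4981, or 0.903% (0.676 to 1.21). No read held both exons. The transcript Pkm-202 (M1) had 5330 and 4602 reads and Pkm-201 (M2) had 68 and 44. The 2 exons are the same at 103 of 167 bases, or 61.7%, and the coding sequences of both transcripts are 1593 bases long. The M1 exon was thus the rule in both libraries, with intervals of its inclusion that overlapped.

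Enolase showed a second exchange of exons of equal length. In Eno1, the upstream 59-base exon was held by 107 of 145 informative reads in replicate 1, or 73.8% (66.1 to 80.3), and by 87 of 106 in replicate 2, or 82.1% (73.7 to 88.2). The downstream exon was held by 37 of 145, or 25.5% (19.1 to 33.2), and 19 of 106, or 17.9% (11.8 to 26.3). No read held both, and the exons are the same at 30 of 59 bases (50.8%). The most abundant Eno1 chain, with 105 and 87 reads, joined the upstream exon to 12 exons in all, with 0 of 11 introns outside the annotation. No annotated transcript has that chain from end to end. The annotated transcript with the upstream exon, Eno1-205, has 7 exons and 663 coding bases, whereas Eno1-202, of 12 exons and 1302 coding bases and with the downstream exon, had 36 and 19 reads. So the greater part of Eno1 reads carried the exon that Eno1-202 lacks.

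The internal exons of Phka1 were nearly constant, with 1 exception. The 177-base exon was held by 178 of 453 informative reads in replicate 1, or 39.3% (34.9 to 43.9), and by 243 of 601 in replicate 2, or 40.4% (36.6 to 44.4). Phka1-201, without it, had 230 and 312 reads and 3546 coding bases, and Phka1-202, with it, had 152 and 199 reads and 3723 coding bases. Both forms were thus present in each library in much the same balance. The other annotated exon pair was not shared out: the upstream 39-base exon was in 98.3% (96.7 to 99.1) and 97.4% (95.8 to 98.4) of reads. The downstream exon was in 0 of 467 and 0 of 615, with upper Wilson limits of 0.816% and 0.621%. An exon of 51 bases at chrX:102528067-102528117 was skipped at a low rate, being held by 452 of 465 reads (97.2%, 95.3 to 98.4) and 594 of 614 (96.7%, 95.0 to 97.9). All the other internal exons of Phka1 in the annotation were held by at least 98.86% of informative reads in each library. The lengths of the 177-base, 51-base and 39-base exons are multiples of 3, so leaving one out keeps the reading frame.

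In Phkb the prevailing chain holds an exon that GENCODE M21 lacks. It has 31 exons and had 263 reads in replicate 1 and 289 in replicate 2, or 76.2% and 75.7% of the gene. Of its 30 introns 2 are outside the annotation, and they flank an exon of 91 bases at chr8:86025198-86025288 on the plus strand. The annotated exon of the same length at chr8:86026457-86026547 was held instead by few reads. Of reads with 1 of these 2 exons, the unannotated exon was in 304 of 319, or 95.3% (92.4 to 97.1), and in 339 of 361, or 93.9% (90.9 to 95.9). No read held both. This chain was classed as having an unannotated splice site in replicate 1 and as a new combination of annotated sites in replicate 2, so 81.2% of Phkb reads fell in the first class in replicate 1 and 82.7% in the second in replicate 2 although the structure was the same. Annotated transcripts had 0.290% and 1.57% of Phkb reads. The sequence of the unannotated exon is not printed, since the genome sequence was not used here. The annotated exon, shown for its place as the rarer partner, reads as follows.
Phkb annotated 91-base exon: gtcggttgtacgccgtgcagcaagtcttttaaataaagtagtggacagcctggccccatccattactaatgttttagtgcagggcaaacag

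In most other members, annotated internal exons were nearly always held or nearly always spliced across. This count takes exons at their exact annotated ends and does not see shifted splice sites. Eno3 had 2 abundant transcripts, each of 12 exons and with the same first donor. Eno3-201 held 53.8% of its reads in replicate 1 and 54.4% in replicate 2, and Eno3-202 held 25.2% and 26.4%. Of 356 annotated internal exons of members with at least 20 informative reads in each library, 333 were held by over 95% of reads of both libraries pooled and 17 by under 5%. The other 6, in 5 genes, are called alternative here. Beside those of Eno1, Phka1 and Phkb, the alternative exons were a 66-base coding exon of Phkg1 at chr5:129869461-129869526 and a 95-base exon of Slc16a3 at chr11:120954174-120954268 that lies before the start of translation. The Phkg1 exon was in 194 of 212 reads (91.5%, 87.0 to 94.6) and 166 of 180 (92.2%, 87.4 to 95.3). The Slc16a3 exon was in 1193 of 1320 (90.4%, 88.7 to 91.9) and 759 of 871 (87.1%, 84.8 to 89.2). None of the 6 was called different between replicates when inclusion was tested with Fisher's exact test and adjusted over the 1540 alternative exons of all genes, and 1 had an unadjusted p under 0.05. Over all genes 6 of the 1540 exons were called (0.39%) after adjustment, and the share of them with an unadjusted p under 0.05 was not counted.

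**Figure D3:**
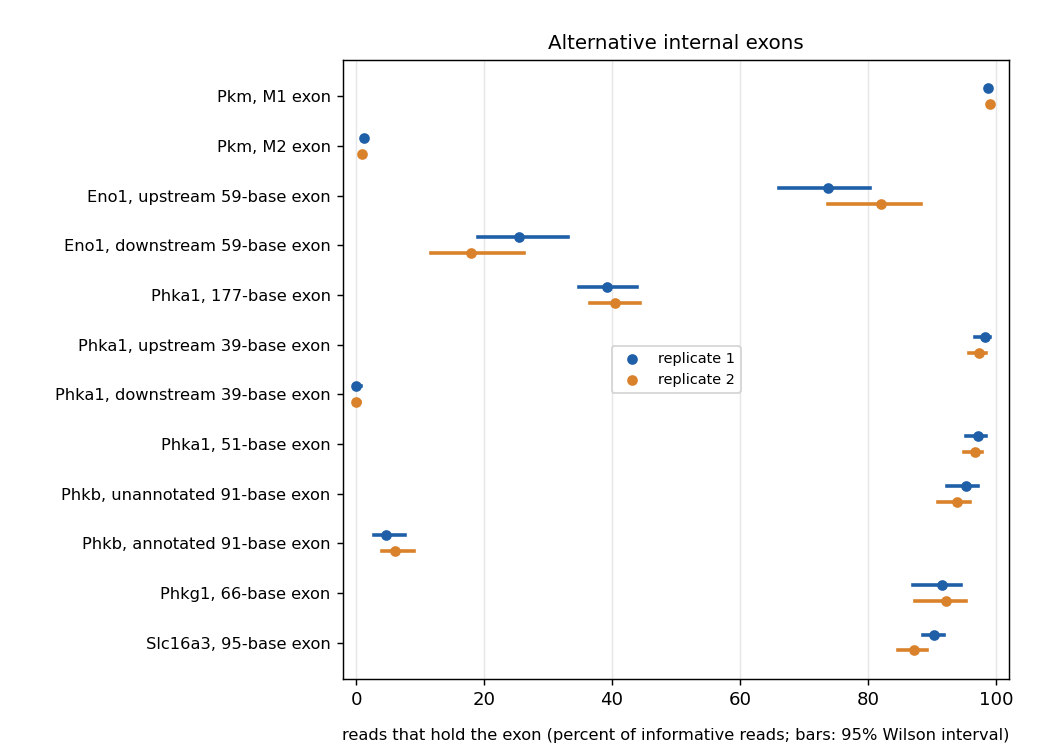
Share of informative reads that hold each internal exon, in percent, in replicate 1 and replicate 2, with 95% Wilson intervals as bars; for the Phkb pair the share is of reads that hold 1 of the 2 exons. The Phka1 177-base exon sits at 39.3% and 40.4%, while the Pkm M1 exon lies near 99% in both libraries.

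For 34 members with 20 reads or more in both libraries, the most abundant transcript held a median of 77.8% of the gene's reads, against 78.0% over the 5025 genes tested. It was annotated in 29 of the 34. The exceptions were Eno1 and Phkb, described above, and Pfkm, Gbe1 and Pfkfb4. Fisher's exact test of the leading share, adjusted by Benjamini-Hochberg over all 5025 genes, called 83 genes (1.65%), of which 0 were among the 34. At an unadjusted p under 0.05 there were 6 members, namely Gpi1, Pfkm, Pgm1, Ppp1r3a, Pygm and Ugp2. The share of all 5025 genes at that level was not counted, so no excess among members can be read from this. The widest gap among the 6 was for Ppp1r3a-201, with 56.4% of reads in the first library (31 of 55) and 75.6% in the second (99 of 131).

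In Pfkm the leading model begins inside the gene. It has 22 exons and had 3824 reads in replicate 1 and 3713 in replicate 2, or 78.5% and 80.2% of the gene, while Pfkm-201 had 529 and 441. The model starts at 98112034 on chromosome 15, 3568 bases downstream of the start of Pfkm-201, and runs 120 bases upstream of the annotated second exon into its first intron. The annotated coding sequence of 2340 bases starts at 98112162 in that second exon, so the model holds every coding exon although its class was incomplete splice match. Of spliced Pfkm reads, 80.3% (79.1 to 81.4) and 82.1% (81.0 to 83.2) had this first splice donor, and 11.1% (10.3 to 12) and 9.84% (9.01 to 10.7) had that of Pfkm-201. The next most abundant chain had 62 and 54 reads. Each other chain thus had few reads beside these 2. Counts are per model, so where single reads began within the first exon of the leading model is not known. Molecules of Pfkm-201 cut short inside its second exon cannot be told apart from that model here.

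RefSeq's table of starts (GRCm38.p6, the same coordinates as mm10) has a Pfkm start at 98112060, which is 26 bases from that model's start, and another at 98108471, 5 bases from the start of Pfkm-201. The 250 bases before each of these are printed because the 2 models that start near them hold most Pfkm reads. The windows were searched on both strands for an E-box of muscle regulators (CAGCTG), for the core of the TATA box (TATAAA), for a GC box (GGGCGG) and for the MEF2 site, and held none, so there are no capitals. Of 32851 RefSeq promoter windows of the same length, 13% held the E-box, 12.4% the TATA letters, 32.7% the GC box and 2.92% a MEF2 site. No match says only that these letters are not in these windows.
Pfkm upstream window, chr15:98108221-98108470, plus strand: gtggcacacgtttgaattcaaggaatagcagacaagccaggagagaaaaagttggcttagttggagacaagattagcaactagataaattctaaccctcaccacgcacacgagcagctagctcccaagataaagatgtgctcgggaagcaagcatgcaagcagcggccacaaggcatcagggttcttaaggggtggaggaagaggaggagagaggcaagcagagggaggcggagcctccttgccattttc
Pfkm downstream window, chr15:98111810-98112059, plus strand: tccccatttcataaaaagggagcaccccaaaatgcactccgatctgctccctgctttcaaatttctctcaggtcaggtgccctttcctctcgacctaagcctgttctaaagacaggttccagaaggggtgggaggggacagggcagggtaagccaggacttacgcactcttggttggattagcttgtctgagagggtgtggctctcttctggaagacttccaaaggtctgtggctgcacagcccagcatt

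Most Gbe1 reads lay on a model classed as unannotated whose spliced sequence is nevertheless that of an annotated transcript at the junction that sets it apart. The leading chain, with 146 reads in replicate 1 and 113 in replicate 2, shares 14 of 15 introns with the annotated Gbe1-203. At the remaining junction it uses the splice sites of Gbe1-201, which lie 4 bases upstream of those of Gbe1-203 at both ends. The junction of Gbe1-201 had 153 and 122 reads and that of Gbe1-203 had 0 and 0. Around this junction, the spliced sequences of both transcripts are identical over the 70 bases compared, since the same 4 bases, in capitals, can be placed at the end of 1 exon or at the start of the next. Annotated Gbe1 transcripts had 0 and 3 reads, so counting annotated transcripts alone takes Gbe1 out of the data although its spliced sequence here matches one.
Gbe1 junction, chr16:70401837-70401849 joined to chr16:70433545-70433561, plus strand: gtccaagctgaagGTAGttattactagtaa

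Several other members had reads with more than 1 first splice donor. A molecule cut short at its 5′ end can also give a later first donor, and this was not told apart from a later start. In Eno3, whose transcripts Eno3-201, Eno3-202 and Eno3-206 share 1302 coding bases, the first splice donor of Eno3-201 and Eno3-202 was in 81.5% (80.8 to 82.3) and 83.4% (82.7 to 84.1) of spliced reads. The donor of Eno3-206, whose first exon holds the start codon, was in 10.6% (10.03 to 11.25) and 7.38% (6.89 to 7.90), with intervals that did not overlap between the libraries. Ugp2-202, with 1524 coding bases, supplied the first donor of 78.3% (75.7 to 80.8) and 74.7% (71.5 to 77.7) of spliced Ugp2 reads. Ugp2-201, with 1491, supplied 18.6% (16.3 to 21.1) and 23.0% (20.1 to 26.1). The 2 Ugp2 forms therefore differ in the start of the protein, and the intervals of each overlapped between the libraries. For Tpi1, the donor of Tpi1-205, with 897 coding bases, was in 93.7% and 93.4% of spliced reads, and that of the shorter Tpi1-203, with 501, in 4.47% and 4.66%. For Gaa, whose 2 transcripts here have the same 2859 coding bases, the donor of Gaa-203 was in 85.6% and 84.3% and that of Gaa-201 in 6.03% and 7.75%.

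The share of reads on models other than full annotated transcripts varied by gene. Pygm-201 took 64.3% of 3076 reads in the first library (1979 reads) and 60.7% of 2373 in the second (1440 reads), and incomplete splice matches held 34.0% and 37.5%. Their first donors were spread over several exons, none with over 6.92% of spliced reads in either library among those outside the annotation. For Pfkfb4, the leading model of 9 exons had 17 and 13 reads, and annotated transcripts 3.45% and 1.67% of reads. For Hk2, Hk2-201 held 41.3% and 36.7% and single-exon models 28.1% and 30.3%. Over the 35 and 34 members with at least 20 reads in a library, annotated transcripts held a median of 80.3% in replicate 1 and 80.8% in replicate 2, against 83.7% and 81.8% over all genes with that depth.

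**Figure D4:**
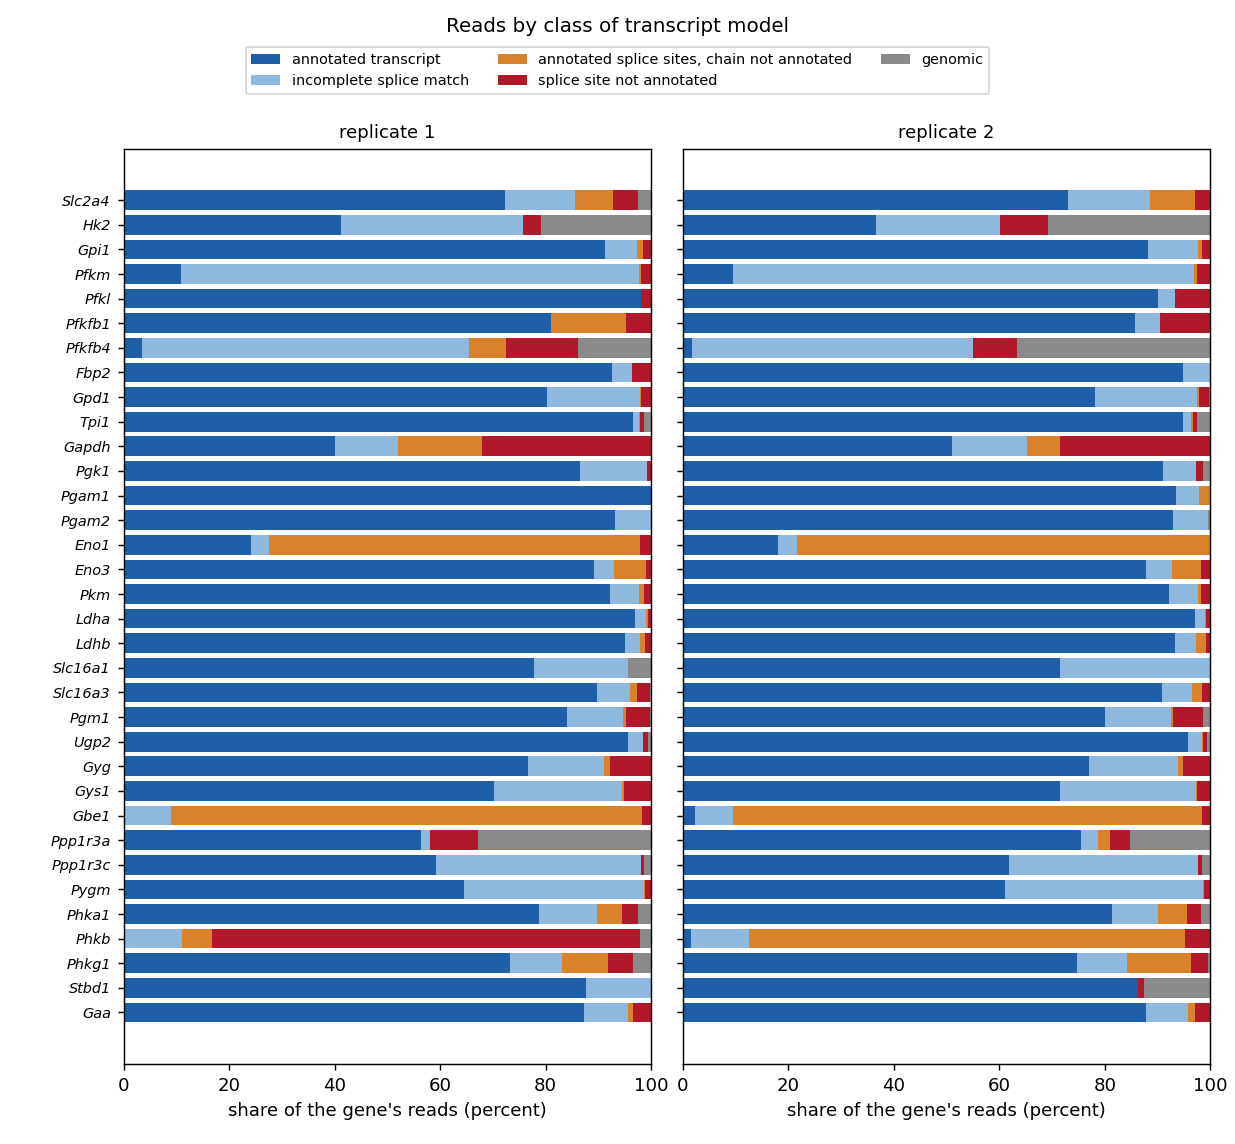
Share of each gene's reads by class of transcript model, in percent, for the members with 20 reads or more in both libraries; the left panel is replicate 1 and the right panel replicate 2. Annotated transcripts hold 97.0% of Ldha reads but 10.9% and 9.53% of Pfkm reads, and the leading Phkb chain changes class between the panels.

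The level of 13 members differed between the libraries at an adjusted p under 0.05. The test was Fisher's, exact and two-sided, on a gene's reads and the remaining reads of each library, with p adjusted by Benjamini-Hochberg over 9341 genes. Of those 9341 genes, 730 (7.82%) were called, 397 (4.25%) higher and 333 (3.56%) lower in replicate 2. Of the 43 members tested, 4 were higher and 9 lower in replicate 2. A log2 ratio below 0 was seen in 33 of the 43 members and in 4874 of the 9341 genes. The median log2 ratio of the members was -0.17, against -0.01 over all genes tested. Among genes with at least 100 reads summed, 13 of 29 members and 515 of 2988 genes were called. Phka2, with 9 reads in all, was not tested. When edgeR's exact test allowed for animal variation through an assumed dispersion of 0.01, only Ppp1r3a of the members was called.

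The 4 members higher in replicate 2 were a phosphatase subunit, a lactate dehydrogenase, a kinase subunit and an enolase. Ppp1r3a, with 55 and 131 reads, was 2.36-fold higher (1.73 to 3.23, adjusted p = 1.48e-06, Fisher's exact test as for all the following). Ldhb, with 562 and 933, was 1.65-fold higher (1.48 to 1.83, adjusted p = 3.66e-19). The slow fibre markers given above moved the same way, and their part in this difference was not tested. Phka1, with 489 and 631, was 1.28-fold higher (1.14 to 1.44, adjusted p = 0.00125). Eno3, with 9745 and 10345, was 1.05-fold higher (1.025 to 1.083, adjusted p = 0.00547), and this call was lost without mitochondrial and spike-in reads, where its log2 ratio was 0.04.

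The 9 members lower in replicate 2 spanned glycolysis, lactate export and glycogen turnover. Slc16a3 had the largest gap, being 1.54-fold higher in replicate 1 (1.41 to 1.67, adjusted p = 3.20e-22). In the glycogen branch, Pygm was 1.31-fold higher in replicate 1 (1.24 to 1.38, adjusted p = 1.30e-20), Ugp2 1.37-fold (1.244 to 1.501, adjusted p = 5.89e-09) and Pgm1 1.16-fold (1.08 to 1.24, adjusted p = 6.03e-04). In glycolysis, Gpi1 was 1.34-fold higher in replicate 1 (1.24 to 1.45, adjusted p = 9.86e-11), Tpi1 1.29-fold (1.21 to 1.37, adjusted p = 6.95e-14), Pkm 1.17-fold (1.13 to 1.21, adjusted p = 3.66e-14) and Pgk1 1.31-fold (1.12 to 1.52, adjusted p = 0.0135). The log2 ratio of Pgk1 was -0.38 as reported, -0.25 and no longer called with annotated transcripts alone, and -0.71 with its copies added. Pfkm, with 4871 and 4627 reads, lay at the threshold, 1.06-fold higher in replicate 1 (1.02 to 1.10, adjusted p = 0.0496), and its call was lost in 5 of 8 alternatives. All 9 gaps were at most 1.54-fold, smaller than those of the summed slow fibre and adipocyte markers.

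The largest members were not all called. Ldha had a ratio of replicate 2 over replicate 1 of 0.968 (0.941 to 0.996, adjusted p = 0.186) and Pgam2 one of 0.929 (0.882 to 0.978, adjusted p = 0.0561). Among uncalled genes of glycogen handling, Ppp1r3c had a ratio of 0.999 (0.876 to 1.14), Gys1 of 0.992 (0.884 to 1.11), Gyg of 1.01 (0.889 to 1.15) and Gaa of 1.01 (0.894 to 1.13). By the same Fisher's exact test, the uncalled leading paralogues Slc2a4, Hk2 and Phkg1 had adjusted p of 0.541, 0.830 and 0.228. Pfkfb4, which led its step, was not called either, with a ratio of 1.03 (0.717 to 1.47). Of uncalled genes outside the steps with paralogues, adjusted p was 0.981 for Fbp2, 0.353 for Gpd1, 0.129 for Gbe1, 0.587 for Phkb and 0.835 for Stbd1. With pseudogene copies added, an alternative chosen after seeing the data, Gapdh (log2 ratio -0.69) and Eno1 (-0.57) were also called lower.

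**Figure D5:**
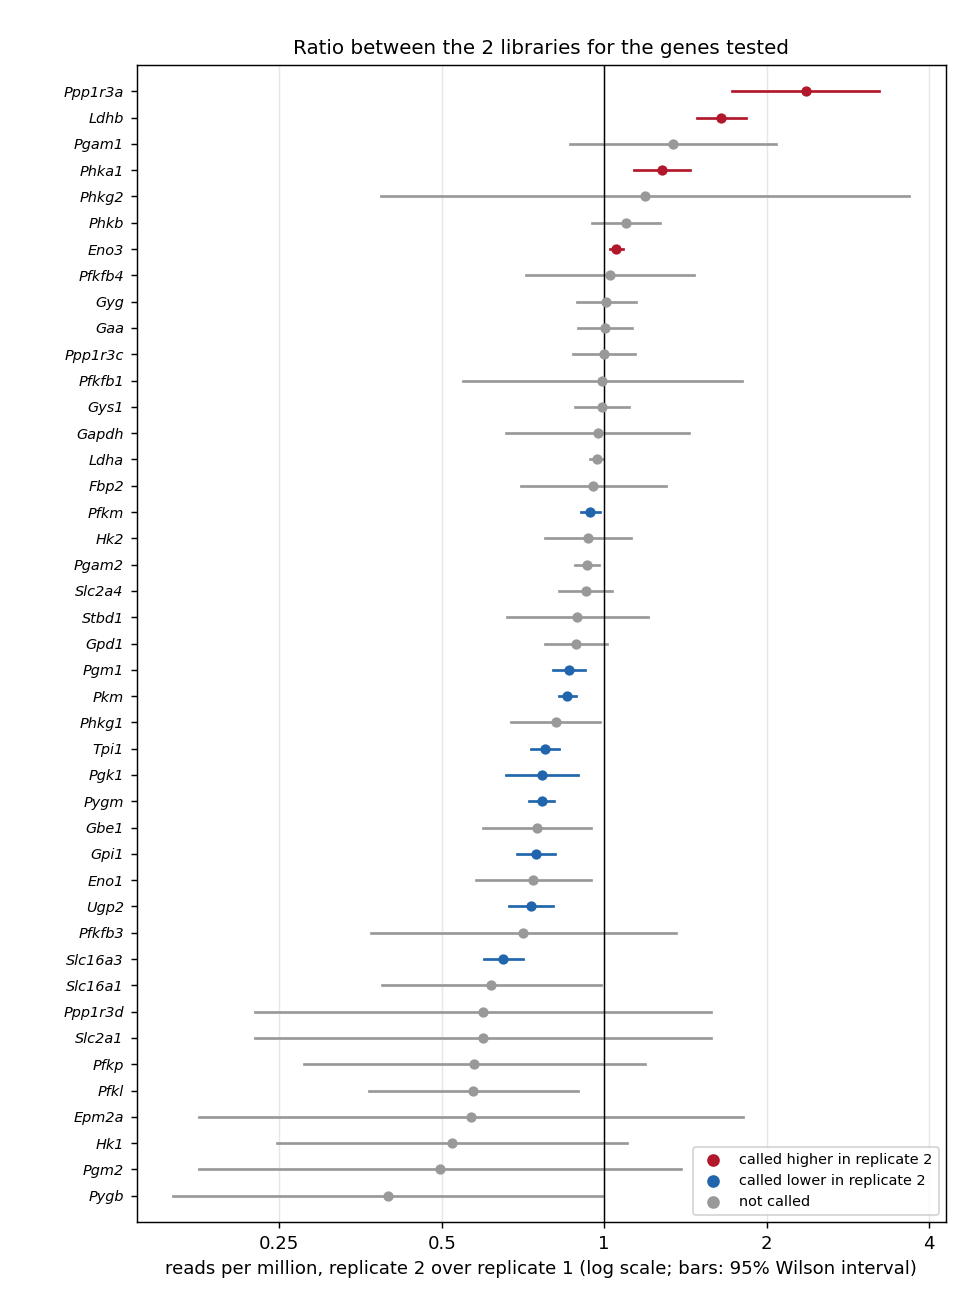
Ratio of CPM, replicate 2 over replicate 1, on a log axis for the 43 genes tested, with 95% Wilson intervals of the read split as bars and called genes in colour. The 4 genes called higher are Ppp1r3a, Ldhb, Phka1 and Eno3, and the 9 called lower lie between 0.650 for Slc16a3 and 0.942 for Pfkm.

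Of 42 other genes of these pathways that are not members, 34 had reads, 23 were tested, 1 was called higher and 4 were called lower in replicate 2. Aldoa, the muscle aldolase, had 17899 and 12416 reads, more than any member, with a lower level in replicate 2 by all its reads (ratio 0.688, 0.673 to 0.704, adjusted p = 1.94e-227). That direction turned when annotated transcripts alone were counted, with 1320 and 1646 reads and a log2 ratio of 0.37, so its direction depends on which reads are counted. Calm3, with 640 and 469 reads, and Calm2, with 266 and 198, which encode calmodulin, also a subunit of phosphorylase kinase, were lower (ratios 0.727 and 0.739, adjusted p = 7.37e-06 and 0.0227). Bsg, the chaperone of the lactate carriers, had 1312 and 1069 reads and was lower (ratio 0.808, adjusted p = 1.19e-05). Tigar, a regulatory phosphatase of glycolysis, had 88 and 132 reads and was higher (ratio 1.49, adjusted p = 0.0481, Fisher's exact test). With annotated transcripts alone, though, Tigar had 42 and 25 reads, a log2 ratio of -0.68, and was not called. The liver glycogen synthase Gys2, the liver and red cell pyruvate kinase Pklr and the testis genes Pgk2 and Ldhc had 0 reads in both libraries.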

How the data were processed

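Gastrocnemius RNA of 2 libraries was read by long-read sequencing, and the deposited tables hold raw read counts per transcript model, which the authors made from filtered alignments on mm10 with GENCODE M21, per the notes deposited with the files, in TALON's layout and with TALON as the source of unannotated models, per the file headers. The aligner, its settings and the versions were not given in the sources used here. Counts were summed per gene by its annotated name (1349298 and 1359923 reads in all, spike-ins included) and divided by the library total, per 1000000 reads (CPM). The reads of each gene were compared with all other reads by two-sided Fisher's exact tests, with Benjamini-Hochberg adjustment over genes with at least 10 reads summed and a threshold of 0.05. With 1 group of 2 libraries there are no residual degrees of freedom, so a quasi-likelihood test could not be fitted. The p-values of Fisher's tests allow for the counting error of reads only and measure no spread between libraries or animals. Log2 ratios use CPM plus 1. Shares have 95% Wilson intervals, which cover counting error only. Transcript shares and exons were tested with at least 20 reads or informative reads in each library, and exons held by 5% to 95% were called alternative. Copies were found with BLAST 2.17.0 at 95% identity. Alternatives used edgeR 4.0.16 with an assumed dispersion of 0.01 and DESeq2 1.42.0 size factors in R 4.3.3. Other steps used Python 3.11.15, pandas 2.3.3 and scipy 1.17.1, and the tests were tried on simulated data. Members and lists were chosen with earlier results of these data known. Genes named in full were leading paralogues, single-gene steps and called members, and, of other pathway genes, those called and the 3 most abundant, some of which are not reported here.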

Additional observations from a re-analysis of the deposited data

Results flagged for a closer look

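The pseudogene copies of Gapdh held 5376 reads in replicate 1 and 3342 in replicate 2, against 50 and 49 for the gene itself, and lie outside the gene-level values. The copies of Pgk1 held 284 and 117 reads and those of Eno1 37 and 15. Models antisense to 26 of the 44 members held 67 and 126 reads, while antisense models of all genes held 15936 and 39788. None of these reads enters a comparison of the members as reported, and there were no control samples to set them against.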

How the results depend on the processing

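No paired analysis was possible because there was 1 group and no contrast. Of 730 genes and 13 members called, Ppp1r3a was the 1 member, and 175 the number of genes, called in edgeR's exact test at an assumed dispersion of 0.01. Over the other alternatives 491 to 726 genes and 11 to 15 members were called; spliced models alone (623 and 12) and added pseudogene copies (726 and 15) were chosen after seeing the data. All 13 called members kept their sign in all 8 alternatives. Pfkm lost its call in 5 of them, and Pgk1 with annotated transcripts alone (log2 ratio -0.25). Without mitochondrial and spike-in reads Ldha (-0.08) and Pgam2 (-0.14) were called and Eno3 (0.04) was not. The count of genes whose leading transcript differed in share fell from 83 to 10 with annotated transcripts alone. The cause was not tested. The share of Pfkfb4 in its step was 5.49% with annotated transcripts alone, and it no longer led. Steps with a leader of at least 90% numbered 9 to 11, and 11 to 11 with either replicate left out. Genes of few reads, such as the 9 members under 20 reads in each library, allow only large differences to be seen.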
